A study of Mus musculus with 24 samples.

Results

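The comparison of ABT-263 with its vehicle in the lungs of hypoxic mice rests on 12 of the 24 libraries of the series, 6 from hypoxic mice given ABT-263 and 6 from hypoxic mice given vehicle. Libraries were chosen by their labels alone, and all genes that passed a filter on low counts entered the test, which left 16935 of the 54532 genes in the table. The animals were young male C57BL6/j mice, and messenger RNA of the lung was sequenced on day 2. Under hypoxia, 1 group received ABT-263 at 50 mg per kg per day and the other the vehicle, so both groups shared the low oxygen. The same pair of groups was sequenced in normoxia, with 6 libraries each, and serves here only for contrast. No genotype, transgene or sort distinguishes the groups. The labels number libraries and not animals, so the p-values measure the spread between libraries.

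ABT-263, also called navitoclax, occupies the groove by which BCL-2, BCL-XL and BCL-W hold pro-apoptotic proteins in check, and a cell that depends on those proteins then dies by the mitochondrial pathway. It is used as a senolytic, an agent that removes senescent cells, because many senescent cells depend on BCL-XL. Circulating platelets depend on BCL-XL and mature B cells on BCL-2, and a fall in platelets is a known effect of the drug. Hypoxia stabilises the HIF transcription factors and remodels the small arteries of the lung. The design asks what the drug adds to that early hypoxic response.

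All 12 libraries carried the genes that define lung. The surfactant gene Sftpc lay between 18540 and 33300 CPM (counts scaled for library size and composition) across both groups, the club cell secretoglobin Scgb1a1 between 46200 and 89420, and the alveolar type 1 receptor Ager between 1066 and 2471; Sftpb, Hopx and Cdh5 were likewise present in every library. Library totals ran from 12643484 to 17295233 expected counts over the series. Total counts, genes detected, haemoglobin share and mitochondrial share did not separate the drug from the vehicle group (exact two-sided permutation p between 0.392 and 0.857, adjusted p = 0.857 for each of the 4 measures, with 0.002165 the smallest p the design allows). Haemoglobin transcripts made up 1.74% ± 0.589 of counts with drug and 1.47% ± 0.361 with vehicle (SD, n = 6 each). The permutation test compares means, and mitochondrial shares were more spread with drug (2.088% to 4.905%) than with vehicle (3.416% to 4.77%). ABT-263 replicates 1 and 6, at 2.088% and 2.384%, lay below every vehicle library. Libraries did differ within their groups along 1 axis, computed over all 24 libraries of the series. That axis held 26.6% of the within-group variance, and the nuclear RNA Neat1 moved along it, from 1033 to 4561 CPM in the hypoxic libraries. The libraries that correlated least with their own group were ABT-263 replicates 1 and 2 and vehicle replicate 5.

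No gene passed the test between drug and vehicle in hypoxia. edgeR's quasi-likelihood test called 0 of 16935 genes (0%) at a Benjamini-Hochberg adjusted p under 0.05, limma-voom also called 0, and DESeq2 called 6 of 16912 (0.0355%). At an unadjusted p under 0.05 edgeR listed 543 genes (3.21%), of which 281 were higher with drug (1.66%) and 262 lower (1.55%). By chance alone 846.8 genes would be expected at that threshold, so an unadjusted p of a single gene is only descriptive here. The smallest adjusted p was 0.226, shared by Ighd, Plk2, Pi16 and Cxcr5. In the same fit, 35.7% of genes differed between hypoxic and normoxic lungs under vehicle, and ABT-263 in normoxia called 7 genes (0.0413%). The groups of 6 did not overlap for 27 genes (0.159%), 9 higher (0.0531%) and 18 lower (0.106%) with drug. A random split of the 12 libraries into groups of 6 leaves no overlap with a probability of 0.002165, so this mark too is descriptive.

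The precision behind that absence of calls was high for most genes. Over all genes the median standard error of the log2 fold change was 0.132. The 95% interval of the drug difference lay within 2-fold either way for 15583 genes (92.02%). Among the 10669 genes that averaged 10 CPM or more in hypoxia, it lay within 2-fold for 10554 (98.92%) and within 1.5-fold for 10079 (94.47%). Larger differences remain within the intervals of the other genes, most of them of low count.

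The 6 genes called by DESeq2 included a pair of B cell genes, a stress kinase, a fibroblast gene, a matrix gene and a clock gene. Only Pi16 was higher with drug. Each of the 6 missed the threshold with edgeR, so their differences are given below as values and intervals.

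Ighd encodes the constant region of immunoglobulin D, the antigen receptor class of mature naive B cells (ENSMUSG00000104213, GRCm38 chr12:113406604-113416324, minus strand). It ran from 54.1 to 76.1 CPM with a median of 63.9 in the vehicle libraries, and from 13.8 to 39.0 with a median of 36.0 in the ABT-263 libraries. Every drug library lay below every vehicle library, with ABT-263 replicate 1 far below the rest. The log2 fold change was -0.99 ± 0.20 (SE; edgeR adjusted p = 0.226, DESeq2 adjusted p = 0.00716).

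Cxcr5 is the chemokine receptor that guides B cells into follicles (ENSMUSG00000047880, chr9:44511787-44561877, minus strand). It ran from 6.53 to 11.2 CPM with a median of 8.28 under vehicle and from 3.04 to 6.54 with a median of 4.57 under ABT-263. The groups met at a single point, the highest drug library being level with the lowest vehicle library. The log2 fold change was -0.90 ± 0.19 (SE; edgeR adjusted p = 0.226, DESeq2 adjusted p = 0.00716).

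Plk2 is a stress-induced polo-like kinase and a p53 target (ENSMUSG00000021701, chr13:110395046-110400844, plus strand). Its vehicle libraries ran from 84.1 to 177 CPM with a median of 145, and its ABT-263 libraries from 69.4 to 121 with a median of 80.8. Of the vehicle libraries, 5 stood above every drug library and 1, replicate 6, lay inside the drug range. The log2 fold change was -0.73 ± 0.15 (SE; edgeR adjusted p = 0.226). Without that library, picked because it lay inside the drug range, it was -0.85 with an edgeR adjusted p of 0.0106. Over all single omissions it ran from -0.85 to -0.66 and its edgeR adjusted p from 0.0106 to 0.526. Plk2 was higher in hypoxia than in normoxia under vehicle (log2 fold change 0.60, edgeR adjusted p = 0.00247), a contrast that shares the hypoxic vehicle libraries with the drug contrast.

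Pi16 encodes a secreted peptidase inhibitor that marks adventitial fibroblasts (ENSMUSG00000024011, chr17:29317680-29330593, plus strand). It ran from 6.29 to 17.9 CPM with a median of 13.2 under vehicle and from 19.2 to 22.3 with a median of 21.4 under ABT-263. The groups did not overlap, and the drug libraries were tightly grouped while the vehicle libraries were spread. The log2 fold change was 0.70 ± 0.14 (SE; edgeR adjusted p = 0.226, DESeq2 adjusted p = 0.00716). Its medians in normoxia were 22.3 CPM with vehicle and 24.3 with drug, and under vehicle it was lower in hypoxia by a log2 fold change of -0.82 (edgeR adjusted p = 7.96e-05), again over shared libraries.

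Tnc encodes tenascin C, a matrix glycoprotein of remodelling vessels and wounds (ENSMUSG00000028364, chr4:63959785-64047015, minus strand). It ran from 70.2 to 85.4 CPM with a median of 75.1 under vehicle and from 49.8 to 64.9 with a median of 52.9 under ABT-263, with no overlap. The log2 fold change was -0.45 ± 0.10 (SE; edgeR adjusted p = 0.374, DESeq2 adjusted p = 0.0317). Both hypoxic groups stood far above normoxia, where the medians were 17.4 CPM with vehicle and 13.5 with drug. Arntl, the sixth gene, is described with the clock below.

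**Figure D1:**
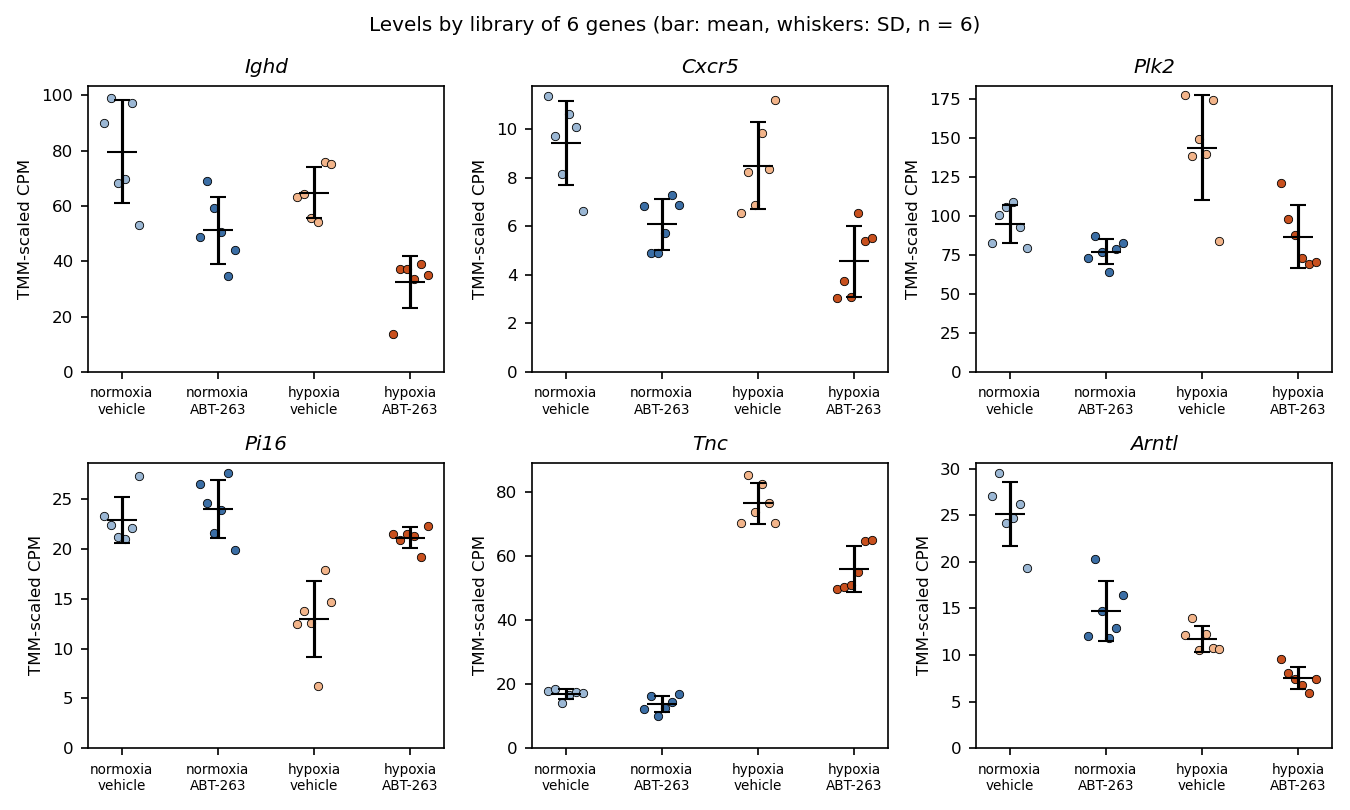
Level of each of 6 genes in every library as scaled CPM, by group, with the group mean (bar) and SD (whiskers) over 6 libraries. In hypoxia the ABT-263 libraries lie below all vehicle libraries for Ighd, Tnc and Arntl and above them for Pi16, while Plk2 and Cxcr5 overlap in 1 library or meet at a point.

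B cell genes had the lowest median of the 56 gene lists. All 19 tested members had a negative log2 fold change, against 45% of all genes, and the median was -0.74 against 0.01 over all genes. None passed adjusted for all genes, and 17 of 19 had an unadjusted p under 0.05 (1.55% of all genes did so in that direction). Summed over the list, vehicle libraries held 442 to 658 CPM with a median of 473, and ABT-263 libraries 186 to 406 with a median of 341. The sums did not overlap, and ABT-263 replicate 1 was the lowest. In bulk lung, fewer B cells and less of these transcripts per B cell cannot be told apart.

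Within the list, the receptor signalling chain Cd79a ran from 20.8 to 40.1 CPM under vehicle and from 8.78 to 21.1 under drug, with a log2 fold change of -0.77 ± 0.19 (SE; edgeR adjusted p = 0.413). The low-affinity IgE receptor Fcer2a ran from 11.2 to 19.8 CPM with a median of 14.5 under vehicle and from 4.51 to 9.79 with a median of 8.74 under drug. Those ranges did not overlap, and its log2 fold change was -0.83 ± 0.20 (SE; edgeR adjusted p = 0.413). The complement receptor Cr2 was at -0.80 and the inhibitory receptor Cd22 at -0.84. Immunoglobulin M heavy chain Ighm was at -0.57. At the other end stood Ebf1, a B lineage transcription factor that mesenchymal cells also express, at -0.18, and the pre-B cell gene Vpreb3 at -0.02 with a 95% interval of -0.40 to 0.35.

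Genes outside the list that lie among the smallest p-values include others that B cells express. The transcription factor Bcl11a was at -0.84 ± 0.19 (SE; edgeR adjusted p = 0.407), the lymphoid cytokine Ltb at -0.61 ± 0.14 (SE; edgeR adjusted p = 0.413) and the proton channel Hvcn1 at -0.45 ± 0.11 (SE; edgeR adjusted p = 0.452). Hvcn1 ran from 17.4 to 20.7 CPM under vehicle and from 11.8 to 16.2 under drug, and the guanine exchange factor Ralgps2 from 21.9 to 27.8 and from 17.3 to 20.4, both without overlap. The list of MHC class II and antigen presentation had 14 of 15 negative values, against 45% of all genes. The list median was -0.12, which ran from -0.22 without ABT-263 replicate 6 to -0.06 without ABT-263 replicate 3. Lowest in that list were H2-Ob at -0.67, H2-Oa at -0.66 and H2-DMb2 at -0.55. The first pair are chains of the DO modulator found mainly in B cells, while the classical chain H2-Aa stood at -0.13.

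The same list leaned the same way in normoxia, on libraries that the hypoxic contrast does not use. There all 19 members were negative with a median of -0.49 (48.3% of all genes were negative), and 0 passed. The list sum was 495 to 797 CPM with vehicle and 412 to 548 with ABT-263 in normoxia, and these ranges overlapped. The test of a difference between the drug's log2 fold changes at both oxygen levels listed none of the 19 even at an unadjusted p under 0.05. In hypoxia the median was -0.57 without ABT-263 replicate 1 and -0.47 without the 3 libraries that correlate least with their group.

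**Figure D2:**
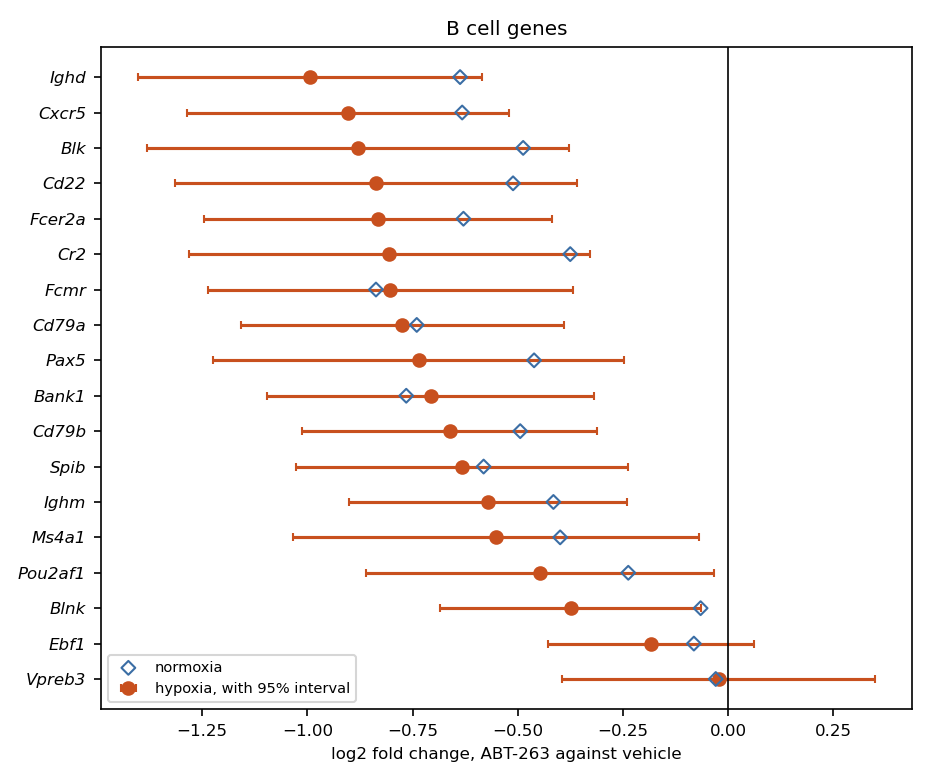
Log2 fold change of ABT-263 against vehicle for 18 of the B cell genes in hypoxia (filled circles with 95% intervals) and in normoxia (open diamonds). Intervals lie below 0 for all but Ebf1 and Vpreb3, and the normoxic values are on the same side.

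NK cell genes, which encode cytotoxic granule proteins and inhibitory receptors, lay on the same side in hypoxia. All 14 were negative (45% of all genes were) with a median of -0.67, and 0 passed. An unadjusted p under 0.05 was held by 2 (1.55% of all genes in that direction). The list sum ran from 69.4 to 124 CPM under vehicle with a median of 96.2, and from 29.1 to 84.3 with a median of 63.6 under ABT-263. The ranges overlapped, with ABT-263 replicate 1 again lowest. Of the 14 genes, 4 had no overlap between the groups, against 0.159% of all genes. The receptor Klra8, 1 of these, ran from 3.53 to 6.79 CPM under vehicle and from 0.995 to 3.49 under drug (log2 fold change -0.96 ± 0.41 SE, edgeR adjusted p = 0.9999). Reads of the near-identical Klra receptors may be split among them. Eomes, the NK lineage factor, was at -1.003 and the granzyme Gzma at -0.69.

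The normoxic value of the NK list turned on 1 library. Its median there was 0.47 with all libraries, where ABT-263 replicate 5 summed to 686 CPM and the other normoxic drug libraries held at most 97.1, and it was -0.64 without that library. T cell genes had 15 of 17 negative values, against 45% of all genes. They were led by the interleukin-7 receptor Il7r at -0.46 and the homing receptor Ccr7 at -0.37, with a list median of -0.21. That median was -0.105 without ABT-263 replicate 1, -0.13 without vehicle replicate 6, -0.34 and -0.33 without ABT-263 replicates 4 and 5, -0.32 with limma-voom and -0.02 without the 3 libraries that correlate least with their group. Plasma cell genes were negative in 10 of 10 (45% of all genes were) with a median of -0.29, led by the light chain constant region Igkc at -0.66. Of the 10, 1 had an unadjusted p under 0.05 (1.55% of all genes in that direction). The plasma cell sums overlapped, at 617.5 to 894.7 CPM under vehicle and 610.9 to 844.8 under ABT-263. The plasma cell median was -0.47 without ABT-263 replicate 4 and -0.15 without those 3 libraries.

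**Figure D3:**
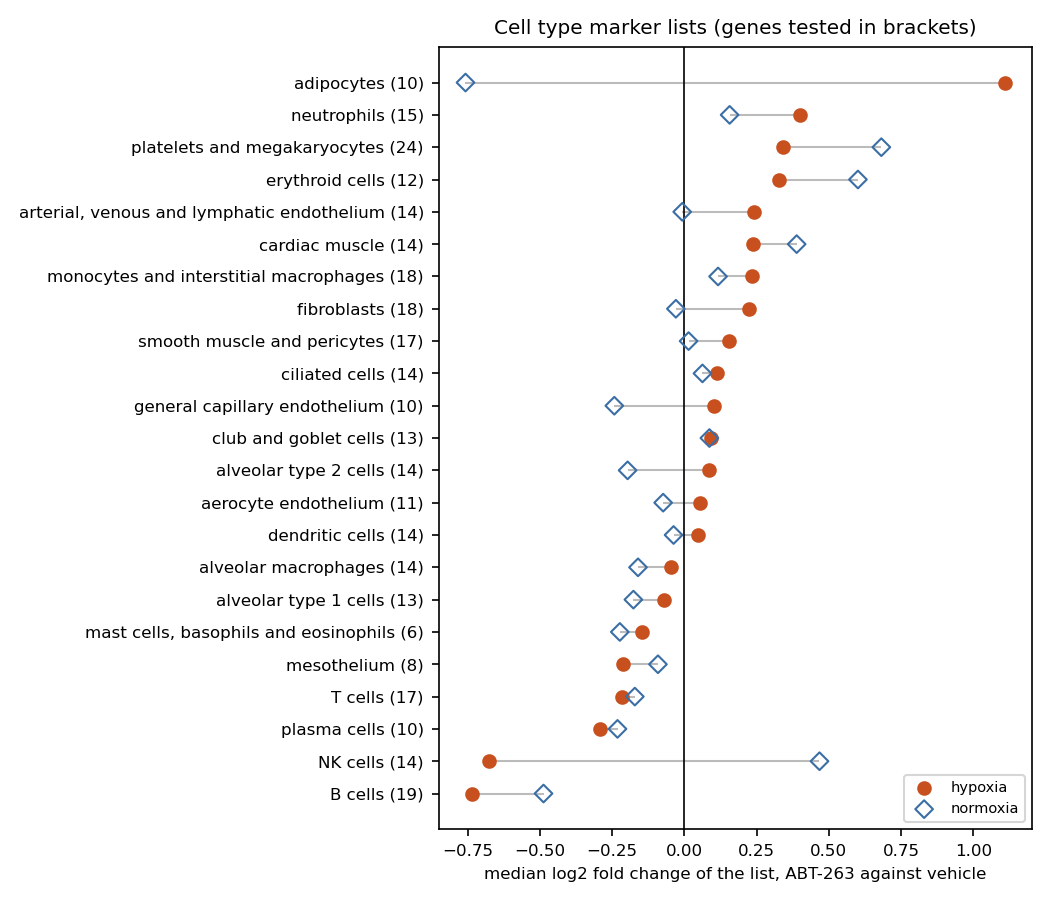
Median log2 fold change of each cell type marker list for ABT-263 against vehicle in hypoxia (filled circles) and normoxia (open diamonds), with the number of genes tested in brackets. B cells at -0.74 and NK cells at -0.67 are lowest in hypoxia, and adipocytes at 1.11 are highest. Several lists lie on opposite sides of 0 at the oxygen levels. Among them are NK cells, whose normoxic value turns on a single library, and adipocytes. General capillary endothelium (0.10 in hypoxia, -0.24 in normoxia) and alveolar type 2 cells (0.09 and -0.20) are others.

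Platelet and megakaryocyte genes leaned to the positive side in hypoxia. Of 24 tested, 22 had a positive log2 fold change (55% of all genes did) with a median of 0.34, and none passed. An unadjusted p under 0.05 on the higher side was held by 7 (1.66% of all genes). The list sum ran from 892 to 1206 CPM with a median of 943 under vehicle and from 928 to 1124 with a median of 999 under ABT-263. The range of the drug libraries thus lay inside that of the vehicle libraries, which turned on vehicle replicate 4 at 1206 (next 965). ABT-263 replicates 3, 4, 5 and 6 lay above that next vehicle library. Erythroid genes, the nearest list in blood lineage, were positive in 10 of 12 with a median of 0.33, which was 0.11 without ABT-263 replicate 4.

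The platelet glycoprotein Gp9, part of the von Willebrand factor receptor, ran from 9.34 to 18.4 CPM under vehicle and from 12.5 to 27.0 under ABT-263 (log2 fold change 0.52 ± 0.20 SE, edgeR adjusted p = 0.9999). The chemokine Pf4 of platelet granules ran from 30.4 to 65.7 and from 44.4 to 67.9 (0.34 ± 0.14 SE, edgeR adjusted p = 0.9999). The receptor subunit Gp1bb, which overlaps Sept5 on the same strand, ran from 5.07 to 12.4 and from 6.49 to 14.6 (0.40 ± 0.25 SE, edgeR adjusted p = 0.9999). All 3 overlapped between the groups.

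In normoxia 22 of the 24 platelet and megakaryocyte genes were positive with a median of 0.68 (8747 of 16935 genes were positive). An unadjusted p under 0.05 was held there by 19 of the 24 (1154 of 16935 genes). Gp9 and Gp1bb passed the test in normoxia, at 1.25 and 1.87 (edgeR adjusted p = 0.0128 and 0.0110). The difference of the drug's log2 fold changes, hypoxia minus normoxia, was -1.47 for Gp1bb and -0.73 for Gp9 at unadjusted p of 0.000674 and 0.0187, and neither passed (edgeR adjusted p = 0.991 for each). Vehicle levels differed by oxygen: Gp1bb had a median of 2.00 CPM in normoxia and 7.57 in hypoxia, against 6.65 and 11.3 with drug.

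Transcripts of the drug's own targets did not separate the groups. Bcl2 ran from 19.6 to 25.4 CPM under vehicle and from 18.2 to 23.3 under drug, with a 95% interval of the log2 fold change of -0.20 to 0.14. Bcl2l1, which encodes BCL-XL, had an interval of -0.30 to 0.29, and Bcl2l2, which encodes BCL-W and overlaps another gene model on its strand, of -0.32 to 0.04. Mcl1, the related survival protein that ABT-263 does not bind well, had an interval of -0.19 to 0.16. The estimates of Bcl2, Bcl2l1 and Mcl1 lay at -0.03 or closer to 0 and changed sign when single libraries were left out. Of 7 anti-apoptotic and 12 pro-apoptotic members tested, 1 had an unadjusted p under 0.05 (3.21% of all genes did). It was the p53-induced Bbc3 (PUMA) at -0.25.

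Senescence genes gave no common direction. Of 30 tested, 19 were positive and 11 negative, with a median of 0.05, and 1 member had an unadjusted p under 0.05 (3.21% of all genes did). The cell cycle inhibitor Cdkn1a (p21) ran from 56.2 to 95.2 CPM under vehicle and from 41.5 to 104 under drug, where ABT-263 replicate 1 was highest, with a log2 fold change of -0.27 and an interval of -0.74 to 0.21. Cdkn2a, the locus of p16, lay under 1 CPM in all 12 libraries, with an interval of -1.08 to 0.67 that leaves it poorly resolved. The p53 target list had a median of 0.00, with 11 positive and 12 negative values, Plk2 at one end and Trp53inp1 at 0.18.

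Among clock genes the activator Arntl (BMAL1) stood apart (ENSMUSG00000055116, chr7:113207465-113314126, plus strand). It ran from 10.5 to 13.98 CPM with a median of 11.4 under vehicle and from 5.97 to 9.54 with a median of 7.41 under ABT-263, with no overlap. The log2 fold change was -0.63 ± 0.13 (SE; edgeR adjusted p = 0.291, DESeq2 adjusted p = 0.0317). In normoxia it passed, at -0.77 (edgeR adjusted p = 0.0128), and the difference between the oxygen levels was 0.14 with an unadjusted p of 0.446.

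Of the other clock genes, some lay above 0 and some below. Nr1d1 and Nr1d2, which encode the REV-ERB repressors of Arntl, were at 0.37 ± 0.13 and 0.34 ± 0.15 (SE; edgeR adjusted p = 0.9999 for each). Nr1d1 ran from 41.6 to 73.7 CPM under vehicle and from 71.1 to 90.5 under drug, overlapping in the highest vehicle library. The output factor Dbp ran from 28.9 to 60.6 and from 58.3 to 81.6 CPM, with a log2 fold change of 0.58 ± 0.24 (SE; edgeR adjusted p = 0.9999). Dbp was at 1.505 in normoxia (edgeR adjusted p = 0.0128), and its difference between oxygen levels was -0.93 (unadjusted p = 0.0124, edgeR adjusted p = 0.991). The activator Npas2, a partner of BMAL1, was at -0.38 and Clock at -0.09. Of 17 core clock genes 11 were positive and 6 negative, with a median of 0.04, and of 14 output genes 10 were positive with a median of 0.15 (0.09 without vehicle replicate 5). Collection times within the day were not analysed here.

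The promoters of Arntl and Nr1d2 are shown because both held AGGTCA, the half-site read by REV-ERB and ROR receptors, while their values lay on opposite sides of 0. The sequences are from RefSeq (GRCm38.p6) and run 5′ to 3′ on the gene's strand from 250 bases before to 50 after the start, with AGGTCA in capitals. Arntl covers chr7:113207261-113207560 on the plus strand and Nr1d2 chr14:18239057-18239356 on the minus strand.
Arntl: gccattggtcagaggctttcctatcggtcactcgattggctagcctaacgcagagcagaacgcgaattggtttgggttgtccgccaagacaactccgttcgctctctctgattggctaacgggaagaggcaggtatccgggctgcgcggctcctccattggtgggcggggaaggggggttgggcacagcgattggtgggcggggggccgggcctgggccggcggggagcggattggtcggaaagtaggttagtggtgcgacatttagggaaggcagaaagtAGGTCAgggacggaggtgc
Nr1d2: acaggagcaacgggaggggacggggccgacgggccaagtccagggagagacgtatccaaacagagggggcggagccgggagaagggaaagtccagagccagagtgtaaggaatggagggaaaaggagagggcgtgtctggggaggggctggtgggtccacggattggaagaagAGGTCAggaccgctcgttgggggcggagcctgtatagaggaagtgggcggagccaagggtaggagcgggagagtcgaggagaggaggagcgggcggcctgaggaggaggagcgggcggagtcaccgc
The half-site began at position 32 after the start in Arntl and at -77 in Nr1d2. Searched on both strands, it lay in 16.3% of 32851 listed promoters. Of 25 clock and output genes, 6 held it in any of their listed promoters. The first share counts promoters and the second genes, some with several promoters, so they are not alike. Arntl has 2 listed promoters, and the promoter with the match is shown. A match only describes these letters. The other motifs searched were CACGTG, found in 7.15% of promoters, TTATGTAA or TTATGCAA in 1.66%, and AGATAA or TGATAA in 18.6%.

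**Figure D4:**
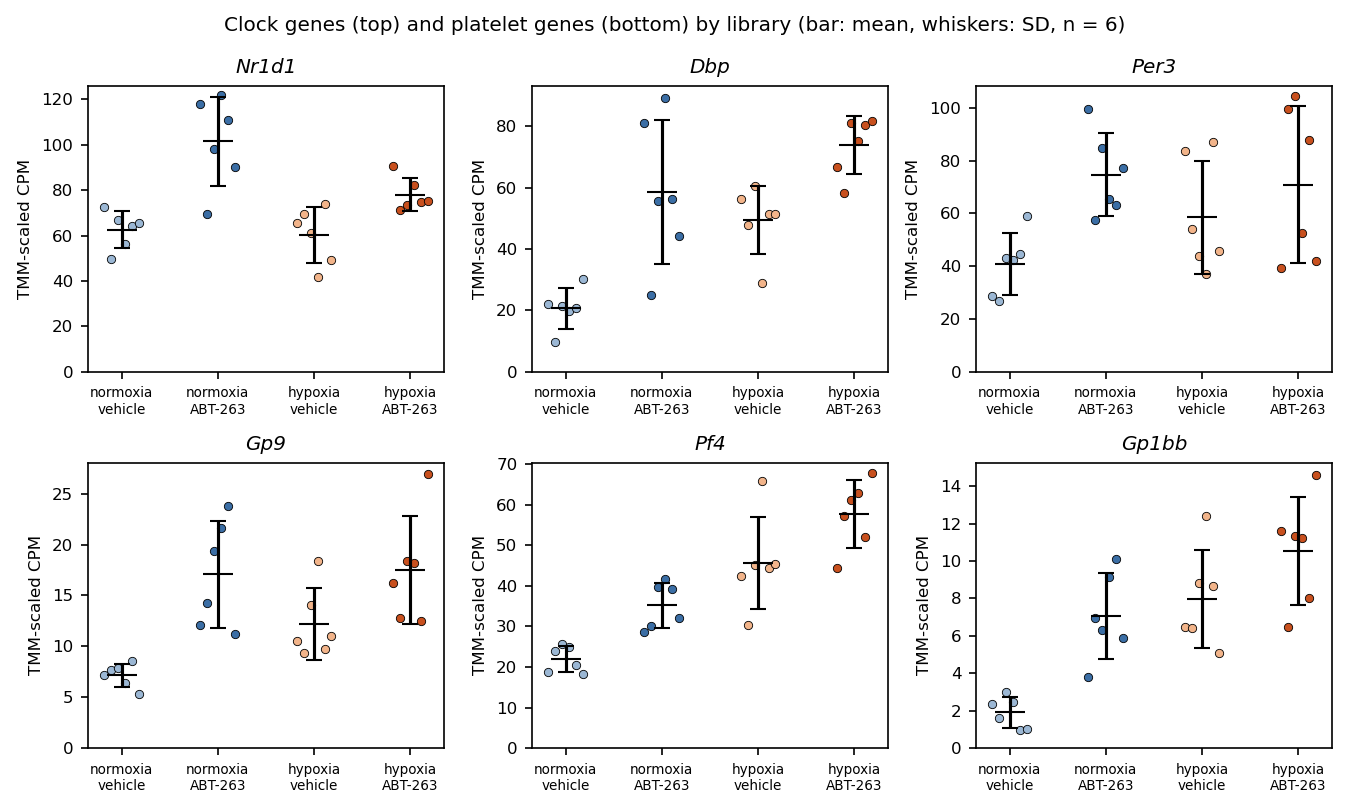
Level of clock genes (top) and platelet genes (bottom) in every library as scaled CPM, by group, with the mean (bar) and SD (whiskers) over 6 libraries. The drug and vehicle groups overlap for all 6 genes in hypoxia, and Gp1bb is lowest in normoxia with vehicle.

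Genes of fibroblasts were mostly positive in hypoxia, 16 of 18 (55% of all genes were) with a median of 0.22 (0.14 without ABT-263 replicate 1). Of these, 4 had an unadjusted p under 0.05 (1.66% of all genes did on the higher side). Besides Pi16 these were the proteoglycan Lum at 0.75, the ferritin receptor Scara5 at 0.59 and the microfibril protein Mfap5 at 0.38. Lum ran from 2.76 to 4.03 CPM under vehicle and from 2.37 to 6.49 under ABT-263, and the ranges overlapped. The list sum did not separate the groups, at 3865 to 5943 CPM against 4034 to 6090. Of 29 matrix genes 23 were positive with a median of 0.11 (0.05 without ABT-263 replicate 1), so that Tnc at -0.45 stood opposite to Col3a1 at 0.30 and Col1a1 at 0.25, neither of which had an unadjusted p under 0.05.

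The neutrophil and monocyte lists had medians above 0, and the list of mast cells, basophils and eosinophils was at -0.15. Neutrophil genes were positive in 14 of 15 (55% of all genes were) with a median of 0.40. They were led by the alarmin subunits S100a9 at 0.62 and S100a8 at 0.59 and the gelatinase Mmp9 at 0.61. S100a9 ran from 47.0 to 105 CPM under vehicle and from 81.5 to 166 under drug, with overlap. The neutrophil sum ran from 582 to 1090 and from 680 to 1195 CPM, and the list median was 0.17 without the 3 libraries that correlate least with their group. Monocyte and interstitial macrophage genes were positive in 16 of 18 with a median of 0.24 (0.16 without ABT-263 replicate 6), among them the scavenger receptor Cd163 at 0.72. The transglutaminase subunit F13a1 ran from 27.4 to 33.1 CPM under vehicle and from 34.1 to 56.8 under drug without overlap, at 0.57 ± 0.19 (SE; edgeR adjusted p = 0.9999).

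The genes that complete the rule for naming included the calcineurin B homologue Chp2 at 0.75, the synuclein Sncg at 0.65 and the lymphatic and platelet protein Mmrn1 at 0.55. Their edgeR adjusted p-values lay between 0.492 and 0.568, and none passed. Each overlapped between the groups. Chp2 ran from 1.27 to 2.40 CPM under vehicle and from 2.28 to 4.23 under drug.

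Genes that hypoxia itself moves gave mixed values. Of 23 HIF targets 10 were positive and 13 negative, with a median of -0.04. Ankrd37, a direct HIF target, ran from 70.5 to 138 CPM under vehicle and from 28.0 to 93.4 under drug, with a log2 fold change of -0.79 ± 0.20 (SE; edgeR adjusted p = 0.494) beside one of 3.98 for hypoxia under vehicle, which shares the hypoxic vehicle libraries. The angiogenic factor Vegfa ran from 541 to 1142 and from 487 to 941 CPM, at -0.17 with an interval of -0.57 to 0.23. Glycolysis genes had a median of 0.04 and 0 members at an unadjusted p under 0.05.

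Of the immediate early list, which also holds feedback genes of the ERK pathway, 17 of 20 were negative (45% of all genes were). The median was -0.12, which ran from -0.20 without ABT-263 replicate 1 to -0.05 without vehicle replicate 4. It was -0.26 without the 3 libraries that correlate least with their group. The ERK phosphatase Dusp6 ran from 130 to 230 CPM under vehicle and from 84.4 to 189 under drug, at -0.64 ± 0.16 (SE; edgeR adjusted p = 0.490). The early gene Ier3 was at -0.67 and the inhibitor Spry4 at -0.54. Under vehicle, hypoxia put Dusp6 at 1.26 and Spry4 at 1.01 relative to normoxia, over hypoxic vehicle libraries shared with the drug contrast. Fos, at 0.05, and Egr1, at -0.12, had intervals that reached beyond 0.80 on either side.

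Adipocyte genes had the highest list median, 1.11, with 9 of 10 positive (55% of all genes were). The list sum ran from 76.5 to 128 CPM under vehicle and from 79.4 to 288 under ABT-263, where replicates 2, 5 and 1 were high and the others lay within the vehicle range. The median was 0.72 without ABT-263 replicate 2, 0.69 with limma-voom and 0.28 without the 3 libraries that correlate least with their group. The fatty acid carrier Fabp4 was at 1.03 (edgeR adjusted p = 0.9999). What makes these libraries differ was not tested.

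Across the 56 gene lists, 49 had a median within 0.25 of 0 on the log2 scale and 20 had 0 members at an unadjusted p under 0.05. Lists of alveolar type 1 and type 2 cells (medians -0.07 and 0.09), ciliated cells (0.11), general capillary endothelium (0.10, and -0.01 without ABT-263 replicate 1), aerocytes (0.06), alveolar macrophages (-0.05) and dendritic cells (0.05) lay close to 0. So did oxidative phosphorylation (0.04), cholesterol synthesis (-0.05), fatty acid synthesis (0.05) and the unfolded protein response (0.06). The remaining endothelial list, of arterial, venous and lymphatic genes, had a median of 0.24 (0.13 to 0.29 over single omissions), with 12 of 14 positive. Of these 14, 4 had an unadjusted p under 0.05 on the higher side (1.66% of all genes). Cell cycle genes were positive in 29 of 35 (55% of all genes were) with a median of 0.15. That median ran from 0.06 without ABT-263 replicate 5 to 0.29 without ABT-263 replicate 2. It was 0.34 without the 3 libraries that correlate least with their group. The median of interferon-stimulated genes, of which 20 of 22 were positive, was 0.13 (0.08 without vehicle replicate 1).

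The drug's differences in hypoxia and in normoxia rest on separate libraries. Across 16935 genes, which are not independent replicates, Pearson's r between their log2 fold changes was 0.05 and Spearman's rho 0.04, and 50.19% had the same sign. The 7 genes called in normoxia (Arntl, Dbp, Gp1bb, Gp9, Mfsd2b, Nr1d1 and Tef) all had the same sign in hypoxia. No gene was without overlap at both oxygen levels.

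The test of whether the drug's effect differed between oxygen levels called 0 genes with edgeR (smallest adjusted p = 0.991), 0 with DESeq2 and 0 with limma-voom, and 625 genes (3.69%) had an unadjusted p under 0.05. The smallest p-values belonged to Shisa2, a regulator of WNT and FGF receptor maturation, to the stromelysin Mmp3 and to the serotonin receptor Htr2a. For Shisa2 the drug's log2 fold change was 0.65 in hypoxia and -0.52 in normoxia. For Mmp3 it was 0.19 and -0.62, and for Htr2a 0.39 and -0.75. Shisa2 ran from 4.19 to 6.21 CPM under vehicle and from 6.43 to 10.5 under ABT-263 in hypoxia, without overlap.

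**Figure D5:**
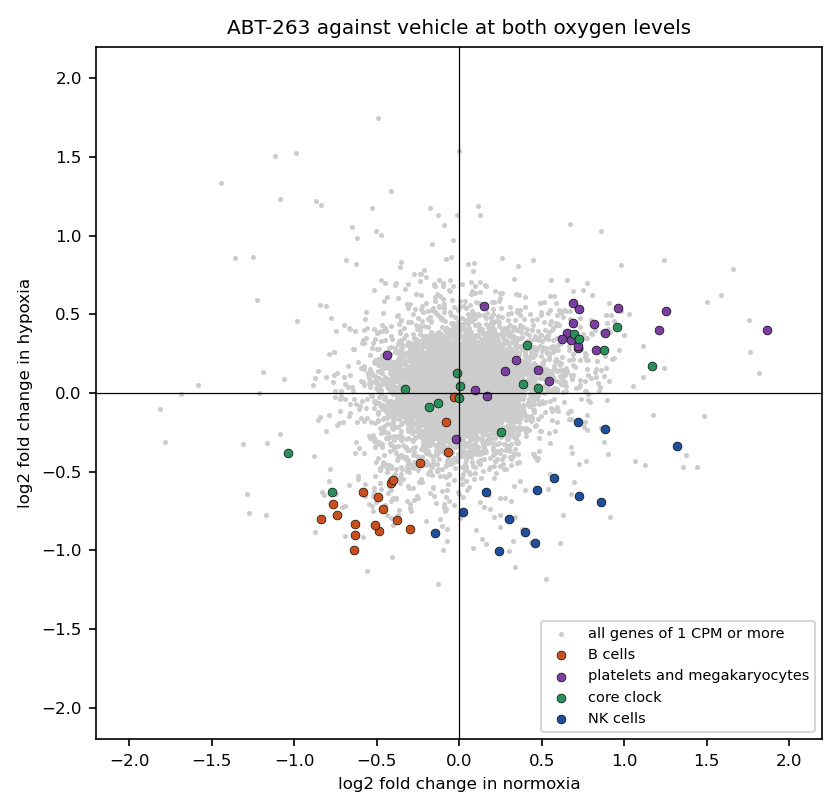
Log2 fold change of ABT-263 against vehicle in normoxia (horizontal) and hypoxia (vertical) for genes of 1 CPM or more in a hypoxic group, with 4 gene lists coloured. B cell genes lie at lower left (19 of 19 negative on both axes), most platelet genes at upper right, and NK genes mostly at lower right, where the normoxic value turns on 1 library.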

How the data were processed

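The deposited table holds expected counts per gene; the authors trimmed reads with Trimmomatic and used STAR and RSEM with GRCm38, per the submitters' processing notes, and the sources used here give neither their versions nor their settings. Libraries were made with a stranded messenger RNA kit, per the labels' protocols. Whether counting used the strand is likewise not given, and 5 of the 29 named genes overlap a gene on the same strand and 11 on the opposite strand.

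From these values, 91.84% of them whole within 0.001, rounded counts of all 24 libraries were fitted with 1 mean per group in edgeR 4.0.16 (R 4.3.3; robust quasi-likelihood F test, filterByExpr with a minimum count of 10, TMM scaling, 20 residual degrees of freedom). Genes were called at a Benjamini-Hochberg adjusted p under 0.05 over 16935 genes. Levels are TMM-scaled CPM, and totals of 12643484 to 17295233 limit their precision. DESeq2 1.42.0, limma-voom (limma 3.58.1), other scaling, no filter, the 12 hypoxia libraries alone and leaving out each library were alternatives. Replicate numbers follow the order of deposit and pair nothing. No 2 libraries of a hypoxic group agreed within sampling noise (lowest chi-square per degree of freedom 8.14).

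The members and the 56 gene lists (23 of cell type markers, 33 of pathways) were chosen with earlier results of these data known, so lists are described by counts and medians and not tested. Named genes were up to 6 in each direction by smallest p, as none passed, then 12 genes of the drug's targets, senescence, platelets, clock and VEGF, the 3 with the smallest interaction p, up to 6 of 10 CPM or more without overlap, and the lowest p of each list described. Further members were named to show a list's range. Positions are from GENCODE M21 (GRCm38), which held 16925 of the 16935 identifiers. AGGTCA was added to the motifs after the data were seen. Protein sequences were not used here, and some genes that the rule names are not reported here.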

Additional observations from a re-analysis of the deposited data

Results flagged for a closer look

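Over 290 sets of 6 libraries (named genes and library measures in the hypoxic groups, and the summed CPM of each of the 56 lists in all 4 groups), 25 had a library whose gap to its nearest neighbour took a share of the range above Dixon's 95% critical value, which chance exceeds in about 1 group in 20. ABT-263 replicate 1 in hypoxia stood apart in 5 sets. It was lowest for Ighd at 13.8 CPM (next 33.6) and Fcer2a at 4.51 (next 7.83), and highest for Cdkn1a at 104 (next 62.7), Bcl2l1 at 157 (next 117) and the mesothelium sum at 1092 (next 602). ABT-263 replicate 2 in hypoxia had the most genes detected, 24286 (next 23308). In the hypoxic vehicle group, replicate 5 was highest for Bcl2 at 25.4 CPM (next 21.5), and replicate 4 for the platelet sum at 1206 CPM (next 965) and the immediate early sum at 1695 (next 1352).

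The other 16 sets were list sums in normoxia, in CPM. ABT-263 replicate 5 was highest for NK cells at 686 (next 97.1), interferon-stimulated genes at 2534 (next 910), T cells at 244.5 (next 142.5), dendritic cells at 457 (next 300.5), neutrophils at 590 (next 436) and MHC class II and antigen presentation genes at 8577 (next 4714). ABT-263 replicate 4 was highest for alveolar type 1 cells at 7350 (next 6530), aerocytes at 1937 (next 1591), larger vessel endothelium at 901 (next 745), smooth muscle and pericytes at 1772 (next 1514) and fatty acid oxidation at 2330 (next 1867). ABT-263 replicate 2 was highest for adipocytes at 363 (next 151). With vehicle, replicate 1 was highest for senescence genes at 2302 (next 1823) and for the IGF, WNT and surface remodelling list at 1841 (next 1447), replicate 6 for cold-inducible and heat shock genes at 3681 (next 2866), and replicate 5 was lowest for alveolar type 2 cells at 32660 (next 40220). What sets these libraries apart was not tested.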

How the results depend on the processing

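In hypoxia edgeR called 0 genes under RLE scaling, without the count filter, with the 12 hypoxia libraries alone, with the within-group axis as a covariate and without the 3 libraries that correlate least with their group; the last 2 alternatives were chosen after seeing the data. limma-voom called 0 and DESeq2 6, 1 higher and 5 lower; the cause was not tested. Leaving out single libraries gave 0 to 1 calls in hypoxia, 0 to 0 higher and 0 to 1 lower; the single call was Plk2 without hypoxic vehicle replicate 6. Genes at an unadjusted p under 0.05 numbered 543 here, 487 to 828 over those fits (828 without ABT-263 replicate 3 in hypoxia), 444 with the 12 hypoxia libraries alone, 536 with RLE, 554 with DESeq2, 563 with limma-voom, 1197 of 33582 genes without the filter, 1080 with the covariate and 823 without the 3 libraries. Normoxic calls, 7 here, were 30 with DESeq2, 81 with the covariate and 11 without the 3 libraries, and 1 to 13 when single libraries were left out; the causes were not tested. The interaction gave 0 calls in every alternative that includes it. Log2 fold changes near 0 changed sign: Bcl2 was at 0.0529 and Mcl1 at 0.0227 without the 3 libraries, and over single omissions Bcl2 ran from -0.0654 to 0.0289, Bcl2l1 from -0.115 to 0.0846 and Mcl1 from -0.0438 to 0.0118. Of the 29 named genes, the other 26 kept their direction in all alternatives run. RLE scaling put the median of all genes at 0.01. No paired analysis was possible because the labels give each library its own number and share none between groups. Depth limits genes of few counts, such as Cdkn2a.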
